A study of Mus musculus with 8 samples.

Results

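The immunoglobulin kappa variable (Igkv) segments are the genes whose symbol begins with Igkv in the count table of mouse small intestine: 160 of 55421 genes. In GENCODE M21 (build GRCm38) 100 of them are annotated as V genes and 60 as V pseudogenes. All lie on chromosome 6, between bases 67555497 and 70704177, in 20 families, with 75 on the plus strand and 85 on the minus strand. Bulk RNA sequencing of total RNA was available for 8 samples of wild-type mouse small intestine, 4 per group. The Hypoxia group had been kept at 7% oxygen for 7 days, and the Hypoxia+Nitrate group had been kept in the same way and given 4 mM nitrate, so every sample came from a hypoxic animal and no normoxic group was compared here. Strain, age, whether animals were pooled and how nitrate was given are not stated in the labels, nor is it stated that each sample is a separate animal; the p-values therefore measure the spread between these samples. The tissue label is small intestine, while the sentence on RNA isolation in the labels names islets.

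A kappa light chain is made by joining 1 of many V segments to 1 of a few J segments upstream of a single constant gene, Igkc, on the same chromosome. Each B cell clone keeps the V segment it joined, so the V segments in a tissue's RNA reflect which clones are present and how much antibody each makes. In the small intestine most antibody comes from IgA plasma cells of the lamina propria, which carry large amounts of light chain RNA. V pseudogenes are copies that do not encode a working light chain. In bulk RNA, fewer plasma cells and less light chain RNA per cell cannot be told apart.

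The kappa locus holds close relatives. The first bases, at most 300, of the coding part of the second exon are printed for the segments that led the counts, to show how alike the 3 leading Igkv8 segments are and how far the other leaders stand from them. All are 5′ to 3′ on the coding strand, from GENCODE M21 transcripts; capitals in Igkv8-34 and Igkv8-21 mark bases that differ from Igkv8-30 in an alignment.
Igkv8-30 (chr6:70117077-70117376, minus strand): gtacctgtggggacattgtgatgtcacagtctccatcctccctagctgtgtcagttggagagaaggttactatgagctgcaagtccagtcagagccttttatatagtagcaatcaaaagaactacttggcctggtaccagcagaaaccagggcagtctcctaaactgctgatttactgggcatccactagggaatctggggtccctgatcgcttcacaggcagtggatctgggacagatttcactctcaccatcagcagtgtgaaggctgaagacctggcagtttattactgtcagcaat
Igkv8-34 (chr6:70044128-70044427, minus strand): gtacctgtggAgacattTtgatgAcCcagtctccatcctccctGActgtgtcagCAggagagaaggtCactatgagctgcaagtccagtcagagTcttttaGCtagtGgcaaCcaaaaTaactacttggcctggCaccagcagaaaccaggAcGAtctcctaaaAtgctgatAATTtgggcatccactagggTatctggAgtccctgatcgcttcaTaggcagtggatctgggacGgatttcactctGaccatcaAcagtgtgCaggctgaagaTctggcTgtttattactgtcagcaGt
Igkv8-21 (chr6:70314908-70315207, minus strand): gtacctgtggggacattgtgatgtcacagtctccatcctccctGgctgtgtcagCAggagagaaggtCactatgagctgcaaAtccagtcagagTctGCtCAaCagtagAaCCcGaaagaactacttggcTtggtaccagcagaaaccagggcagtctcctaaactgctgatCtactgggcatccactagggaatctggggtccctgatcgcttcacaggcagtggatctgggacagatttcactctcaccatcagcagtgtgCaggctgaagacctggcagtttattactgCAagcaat
Igkv6-23 (chr6:70260409-70260706, minus strand): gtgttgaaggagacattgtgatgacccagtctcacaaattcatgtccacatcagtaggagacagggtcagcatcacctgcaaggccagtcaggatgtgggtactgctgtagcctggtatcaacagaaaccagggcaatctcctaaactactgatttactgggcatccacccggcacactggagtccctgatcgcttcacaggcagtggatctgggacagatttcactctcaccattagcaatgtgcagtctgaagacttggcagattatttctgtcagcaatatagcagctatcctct
Igkv20-101-2 (chr6:68474809-68475101, plus strand): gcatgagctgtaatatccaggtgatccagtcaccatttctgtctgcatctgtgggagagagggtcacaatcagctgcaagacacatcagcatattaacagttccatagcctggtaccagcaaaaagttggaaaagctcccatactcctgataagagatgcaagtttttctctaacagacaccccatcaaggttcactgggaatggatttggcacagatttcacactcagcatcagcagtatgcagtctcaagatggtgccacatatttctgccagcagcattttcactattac
Over the whole coding part of that exon Igkv8-30 was 92.1% identical to Igkv8-21, 87.3% to Igkv8-34, 75.4% to Igkv6-23 and 58.9% to Igkv20-101-2. Of the 50-base stretches of its transcript, Igkv8-30 shared 19.1% with another Igkv segment, Igkv8-21 shared 26.4%, Igkv6-23 shared 35.6% and Igkv4-78 shared 67.6%. Igkv8-34 shared 0.633% and Igkv20-101-2 shared none. Reads from a shared stretch could be assigned to either copy or dropped, so the counts of Igkv4-78, Igkv6-23 and Igkv8-21 are less certain than those of Igkv8-34 and Igkv20-101-2. Among all 160 segments, 42 shared no 50-base stretch with another gene's transcript and 19 shared more than 50% of them.

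The libraries held 5345377 to 21835865 counts in Hypoxia and 8662279 to 63943036 in Hypoxia+Nitrate. Mitochondrial genes and the ribosomal DNA locus on chromosome 17 took 8.46% to 76.7% of the counts in Hypoxia and 12.3% to 67.3% in Hypoxia+Nitrate. As a measure of the count level reached by genes that gut tissue is assumed not to use, 1470 olfactory, vomeronasal and trace amine receptor genes were counted in the same libraries. In Hypoxia 99% to 99.6% of these receptor genes had a count, and in Hypoxia+Nitrate 31.2% to 82.3%. Enterocyte markers (Epcam, Vil1, Fabp1, Fabp2, Apoa1 and Alpi) were above zero in every library, with summed counts 2.40 to 51.9 times the receptor level in Hypoxia and 118 to 12100 times in Hypoxia+Nitrate. All 6 of them rose in Hypoxia+Nitrate, as did all 5 smooth muscle markers, in the edgeR test described further on; by library size only, 4 and 0 did. Both counts fell without single Hypoxia libraries: 0 and 0 passed without Hypoxia 1, 3 and 0 without Hypoxia 3, and 1 and 0 without Hypoxia 4. The share of all genes called higher fell too, from 11.7% to 1.95%, 4.16% and 4.23% in these fits. The median log2 difference of the enterocyte markers was 6.02 with all libraries and 5.94, 5.5 and 5.81 in these fits. That of the smooth muscle markers was 2.49 and 2.73, 2.12 and 2.56. Without Hypoxia 1 and 2 together 0 and 1 passed, and with the receptor level subtracted (limma-voom) 2 and 0. The share of receptor genes with a count, the enterocyte level and the group thus moved together. The part of these differences in the Igkv results was not tested.

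Counts on the Igkv segments were a small part of every library. Summed Igkv counts were 1358, 1181, 1842 and 1408 in Hypoxia replicates 1 to 4 and 1321, 1216, 1861 and 1935 in Hypoxia+Nitrate replicates 1 to 4. The sums of the groups overlapped. As a share of all counts this was 0.0155% ± 0.0134 in the Hypoxia libraries and 0.00965% ± 0.00887 with nitrate (SD, n = 4 each), a difference smaller than the spread between replicates (2-sided exact permutation test, p = 0.543). With mitochondrial and ribosomal DNA genes left out of the total, the shares were 0.0292% and 0.0138%, a difference that also missed the threshold (exact permutation p = 0.0571). The direction reversed when the receptor level was subtracted from the share of all counts, and with both changes the difference was -0.00286 percentage points (exact permutation p = 0.571). No direction is therefore given.

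What the counts fell on differed between the groups. The 100 V genes had 28.5, 22.4, 39.8 and 27.0 counts per kb of exon in Hypoxia and 35.1, 29.5, 44.8 and 51.9 in Hypoxia+Nitrate. The 60 pseudogenes had 16.8, 19.1, 20.5 and 22.2 counts per kb in Hypoxia and 2.29, 7.48, 11.9 and 2.39 in Hypoxia+Nitrate. The ranges of the V genes overlapped, while every Hypoxia library lay above every Hypoxia+Nitrate library for the pseudogenes. The receptor genes had 18.1, 12, 20.7 and 17.1 counts per kb in Hypoxia and 2.96, 12.7, 11.8 and 4.75 in Hypoxia+Nitrate. Set against them, V genes stood at 1.57 to 1.92 times the receptor level in Hypoxia and at 11.9, 2.33, 3.79 and 10.9 times in Hypoxia+Nitrate replicates 1 to 4. Pseudogenes stood at 0.926 to 1.59 times the receptor level in Hypoxia and 0.503 to 1.01 times in Hypoxia+Nitrate. A level equal to that of the receptor genes would account for 56.6% to 74.2% of the Igkv counts in Hypoxia, and for 12.5%, 57.9%, 35.4% and 13.7% in Hypoxia+Nitrate. Hypoxia+Nitrate 2 was thus close to the Hypoxia libraries in this measure, and Hypoxia+Nitrate 1 and 4 were farthest from them.

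**Figure D1:**
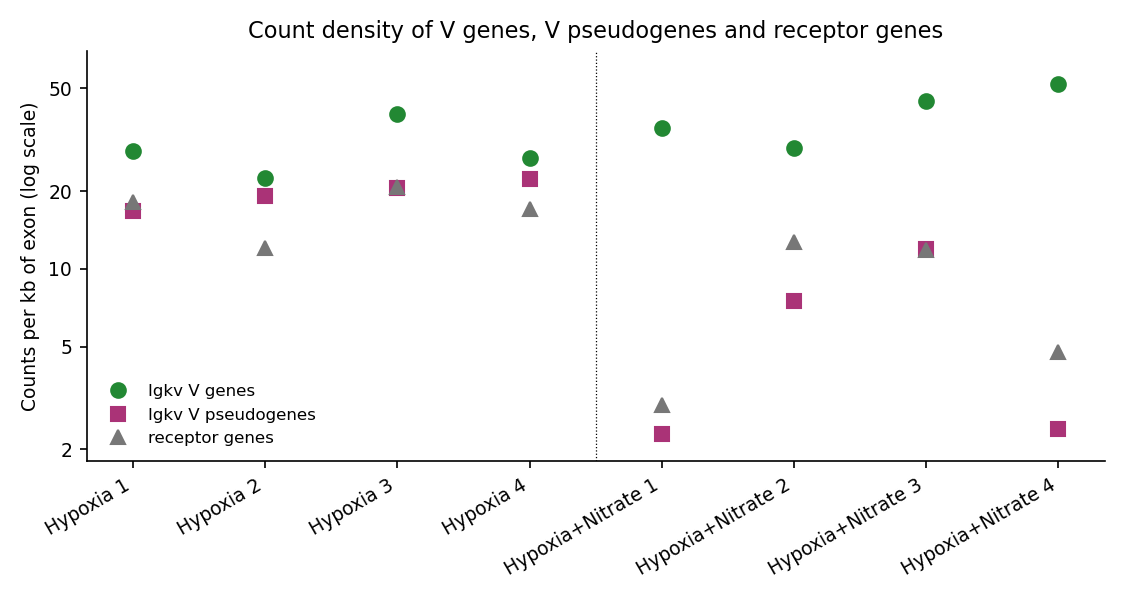
Counts per kb of exon (log axis) in each of the 8 libraries for 100 Igkv V genes, 60 Igkv V pseudogenes and 1470 receptor genes. Pseudogenes lie at 0.503 to 1.59 times the level of the receptor genes, at 16.8 to 22.2 counts per kb in Hypoxia and 2.29 to 11.9 in Hypoxia+Nitrate, and V genes lie above both in all 8 libraries.

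The number of segments with at least 1 count was 124, 120, 146 and 134 in Hypoxia and 53, 56, 52 and 59 in Hypoxia+Nitrate. Pseudogenes made up 43 to 53 of the segments detected in Hypoxia and 4, 16, 18 and 6 of those in Hypoxia+Nitrate. In all 4 Hypoxia libraries 77 segments had a count, and in all 4 Hypoxia+Nitrate libraries 16 did, all of them V genes. No count in any Hypoxia+Nitrate library was found for 48 segments, of which 30 are pseudogenes; 2 segments had none in any Hypoxia library, and 1 had none in any library. A count of 0 leaves room for a share of up to 0.155% to 0.254% of a library's Igkv counts (3 counts of the library's Igkv total). This limit, like the intervals given further on, covers counting error only.

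Because the Igkv totals were similar, depth within the locus did not separate the groups. Thinned to the lowest Igkv total, 1181 counts, a Hypoxia library was expected to show 130.2 ± 10.6 segments and a Hypoxia+Nitrate library 54.7 ± 3.13 (SD, n = 4 each; 2-sided exact permutation test, p = 0.0286, the smallest p that 4 against 4 allows, and 0.04 after Benjamini-Hochberg adjustment over the 7 library measures tested). The difference of -75.5 segments was -42.2 with the receptor level subtracted, -40.2 with pseudogenes left out and -25.4 with the pseudogenes' own level subtracted (exact permutation p = 0.0286 in each). Values below the subtracted level were set to 0, so both subtractions are partial. Segments with at least 10 counts numbered 61, 40, 76 and 50 in Hypoxia and 33, 25, 32 and 40 in Hypoxia+Nitrate. Here Hypoxia 2 and Hypoxia+Nitrate 4 tied at 40, and the difference did not pass the test (exact permutation p = 0.0571, adjusted 0.0667). Segments with at least 100 counts went the other way, with 0, 0, 1 and 1 in Hypoxia and 2, 3, 5 and 3 in Hypoxia+Nitrate (exact permutation p = 0.0286).

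The Igkv counts, the part at the receptor level included, were more concentrated in Hypoxia+Nitrate. The effective number of segments, the exponential of the Shannon entropy of the segments' shares, equals the number of equally used segments that would give the same evenness. It was 98.1, 86.1, 101.5 and 103.9 in Hypoxia and 32.4, 23.7, 23.9 and 28.1 in Hypoxia+Nitrate, with no overlap. The group means were 97.4 ± 7.91 and 27.0 ± 4.09 (SD, n = 4 each; exact permutation p = 0.0286, adjusted 0.04). Evenness, the same entropy as a fraction of its maximum over 160 segments, was 0.902 ± 0.0166 in Hypoxia and 0.648 ± 0.0291 in Hypoxia+Nitrate (SD, n = 4 each; exact permutation p = 0.0286, adjusted 0.04). Evenness and the effective number come from the same entropy, so the p of one is not separate support for the other. It took 31, 25, 32 and 35 segments to reach 50% of the Igkv counts in Hypoxia and 9, 5, 5 and 7 in Hypoxia+Nitrate. The 10 most used segments of a library held 25.2% ± 2.86 of its Igkv counts in Hypoxia and 61.6% ± 5.05 in Hypoxia+Nitrate (SD, n = 4 each; exact permutation p = 0.0286, adjusted 0.04). With the receptor level subtracted from each segment, the effective number was 53.8 ± 2.81 in Hypoxia and 23 ± 6.68 in Hypoxia+Nitrate (SD, n = 4 each; exact permutation p = 0.0286). The difference of -70.4 thus became -30.9, and it was -40 with pseudogenes left out and -21.2 with the pseudogenes' level subtracted (exact permutation p = 0.0286 in each). In both subtractions values below the level were set to 0, so part of the level stays in the counts. They cannot show what difference a full subtraction would leave.

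The same measure moved the same way in the receptor genes. Their effective number, as a percentage of the 1470 genes, was 71.1%, 65.4%, 67.7% and 67.8% in Hypoxia and 11.2%, 32.2%, 15.1% and 14.8% in Hypoxia+Nitrate. For the Igkv segments the corresponding percentages of 160 were 61.3%, 53.8%, 63.4% and 64.9% in Hypoxia and 20.2%, 14.8%, 15% and 17.5% in Hypoxia+Nitrate. For the 60 pseudogenes alone they were 55.4% to 72.0% in Hypoxia and 5.79% to 20.1% in Hypoxia+Nitrate. The fall in evenness is therefore not particular to the kappa locus, and the part of whatever moved the receptor genes in the Igkv evenness was not tested.

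**Figure D2:**
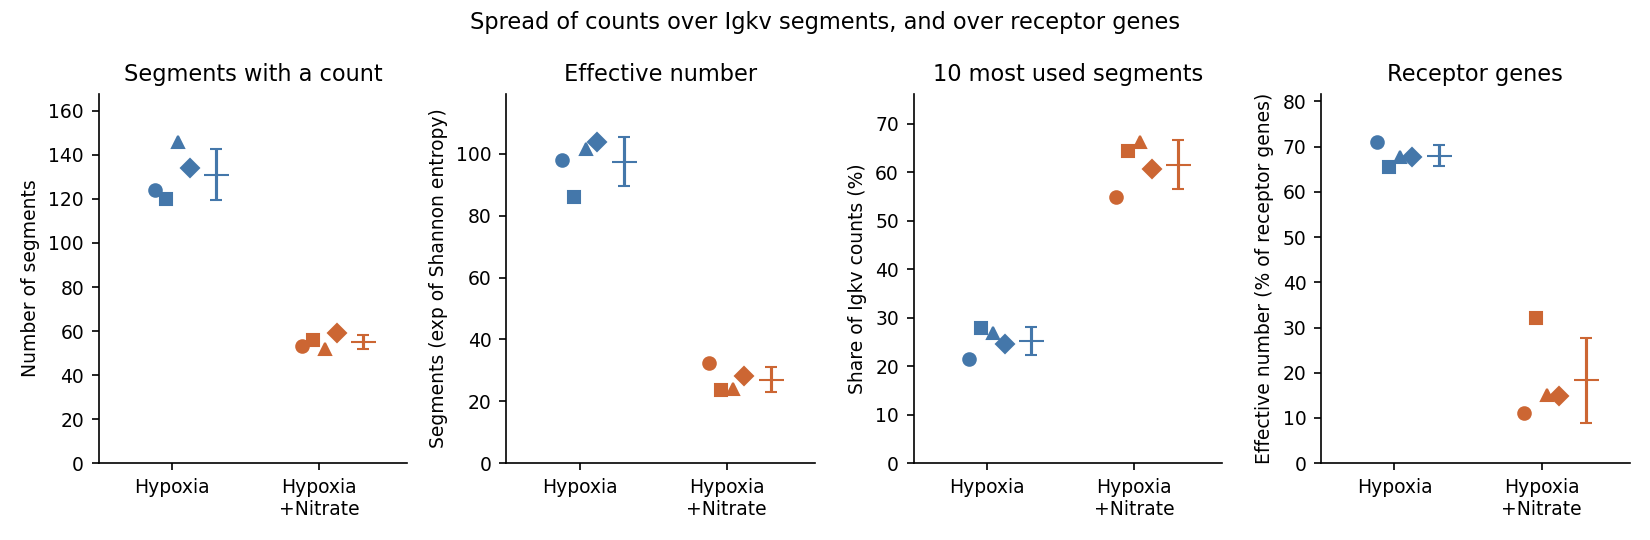
Segments with a count, effective number of segments, share of the 10 most used segments and, at the right, the effective number of receptor genes as a percentage of 1470 genes, for each library (symbols) with the group mean and SD (bars, n = 4). The groups separate in all 4 panels, the receptor genes included (65.4% to 71.1% against 11.2% to 32.2%).

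Igkv8-30 (ENSMUSG00000076577, chr6:70117061-70117620, minus strand, 609 kb from the start of Igkc) had the highest mean share of Igkv counts over the 8 libraries. Its counts were 22, 28, 75 and 39 in Hypoxia and 133, 185, 329 and 319 in Hypoxia+Nitrate, so that every Hypoxia+Nitrate library lay above every Hypoxia library. As shares of the Igkv counts this was 1.62%, 2.37%, 4.07% and 2.77% against 10.1%, 15.2%, 17.7% and 16.5%. The 95% Wilson interval was 3.26% to 5.07% for the highest Hypoxia library and 8.56% to 11.8% for the lowest Hypoxia+Nitrate library. Set against the receptor genes per kb, Igkv8-30 stood at 3.30 to 9.84 times their level in Hypoxia and at 39.7 to 182 times in Hypoxia+Nitrate. In CPM (counts scaled to a common library size, here corrected by the trimmed mean of M values, TMM), it was 2.45 ± 1.07 in Hypoxia and 13.4 ± 4.04 in Hypoxia+Nitrate (SD, n = 4 each). The rise was 2.44 on the log2 scale, with an SE of 0.476, and passed edgeR's quasi-likelihood test (Benjamini-Hochberg adjusted p = 0.00917 over 35431 genes). The call held with each of the 8 libraries left out in turn (adjusted p 0.00223 to 0.0482), and was lost under scaling by library size only (log2 fold change 1.59, adjusted p = 0.476), without Hypoxia 1 and 2 together (2.26, 0.0627) and with the receptor level subtracted (limma-voom, 1.24, 0.308).

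Igkv20-101-2 (ENSMUSG00000106403, chr6:68474613-68475101, plus strand), the only member of its family and 2252 kb from Igkc, had the highest mean share in Hypoxia, 5.97%, and the next highest after Igkv8-30 in Hypoxia+Nitrate, 11.5%. Its counts were 30, 86, 133 and 101 in Hypoxia and 81, 249, 234 and 135 in Hypoxia+Nitrate, or 2.21%, 7.28%, 7.22% and 7.17% against 6.13%, 20.5%, 12.6% and 6.98% of the Igkv counts. The groups overlapped. It was the most used segment in Hypoxia 2, 3 and 4 and in Hypoxia+Nitrate 2, and was among the 10 most used in all 8 libraries. The TMM-scaled log2 difference was 0.88 (SE 0.52; edgeR adjusted p = 0.22), and its sign turned with the receptor level subtracted (limma-voom, -0.64). It was also the only segment whose count density exceeded the 99th percentile of the receptor genes in all 8 libraries.

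Igkv6-23 (ENSMUSG00000095630, chr6:70260409-70260955, minus strand) had counts of 10, 7, 19 and 12 in Hypoxia and 108, 21, 59 and 293 in Hypoxia+Nitrate. Hypoxia+Nitrate 4 alone gave it 15.1% of its Igkv counts, and Hypoxia+Nitrate 2 only 1.73%. Its log2 fold change was 3.17 (SE 0.82; edgeR adjusted p = 0.0202), a call that was lost on leaving out Hypoxia 1, 2, 3 or 4 (adjusted p 0.0528 to 0.0687) or Hypoxia+Nitrate 4 (0.0616). Igkv8-34 (ENSMUSG00000104769, chr6:70044112-70044678, minus strand) had counts of 12, 17, 11 and 3 in Hypoxia and 44, 37, 163 and 58 in Hypoxia+Nitrate. The groups did not overlap, with Hypoxia+Nitrate 3 well above the other libraries. Its log2 fold change was 2.59 (SE 0.851; edgeR adjusted p = 0.0473), and the call was lost without any 1 of the Hypoxia libraries (0.0673 to 0.138) and without Hypoxia+Nitrate 3 (0.0705) or 4 (0.0531). Both calls were also lost under scaling by library size only, without Hypoxia 1 and 2 together and with the receptor level subtracted. That of Igkv8-34 was lost under RLE (relative log expression) scaling too (edgeR adjusted p = 0.0635). With 1 library left out the log2 fold change was 2.46 to 3.59 for Igkv6-23 and 2.08 to 3.02 for Igkv8-34. Without Hypoxia 1, 2, 3 or 4 the share of all genes called higher also fell, from 11.7% to 1.95%, 7.06%, 4.16% and 4.23%.

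Igkv8-30, Igkv6-23 and Igkv8-34 together held 3.24%, 4.40%, 5.70% and 3.84% of the Igkv counts in Hypoxia and 21.6%, 20%, 29.6% and 34.6% in Hypoxia+Nitrate. Igkv8-21 (chr6:70314895-70315472, minus strand), the closest of the printed relatives of Igkv8-30, had counts of 8, 6, 38 and 0 in Hypoxia and 95, 29, 115 and 38 in Hypoxia+Nitrate. The groups overlapped, with Hypoxia 3 at the count of Hypoxia+Nitrate 4, and the log2 difference of 2.45 (SE 1.14) missed the threshold (edgeR adjusted p = 0.131), which it passed without Hypoxia+Nitrate 2 (2.74, 0.0456). Igkv4-78 (chr6:69059690-69060224, minus strand) was the most used segment of Hypoxia 1 at 3.09%. Its counts were 42, 29, 30 and 25 in Hypoxia and 14, 106, 34 and 21 in Hypoxia+Nitrate, where Hypoxia+Nitrate 2 stood apart. The sign of its small difference (log2 0.31, SE 0.803, edgeR adjusted p = 0.787) turned under RLE scaling, with DESeq2 and without Hypoxia+Nitrate 2.

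**Figure D3:**
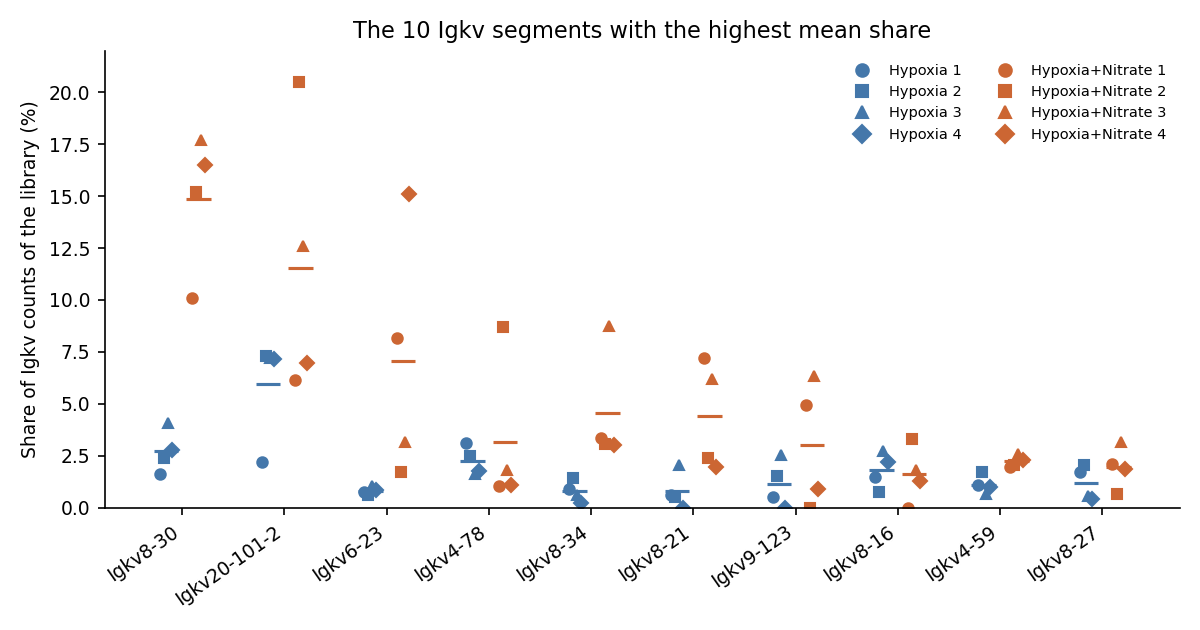
Share of the library's Igkv counts (%) for the 10 segments with the highest mean share, with 1 symbol per library and a bar at each group's mean (n = 4). Igkv8-30 separates the groups (1.62% to 4.07% against 10.1% to 17.7%), whereas Igkv20-101-2 is high in both and Igkv4-78 is high in Hypoxia+Nitrate 2 only.

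Other members of the 10 highest mean shares varied from library to library. Igkv9-123 had counts of 7, 18, 47 and 0 in Hypoxia and 65, 0, 118 and 17 in Hypoxia+Nitrate. It had no count in Hypoxia 4 or Hypoxia+Nitrate 2 (log2 difference 1.47, SE 1.48, edgeR adjusted p = 0.461). Igkv8-16 had counts of 20, 9, 50 and 31 in Hypoxia and 0, 40, 34 and 25 in Hypoxia+Nitrate; 65.3% of its 50-base stretches occur in the transcript of a gene outside the family, so its counts are uncertain. Igkv4-59 and Igkv8-27 reached 12 to 20 and 6 to 24 counts in Hypoxia and 25 to 48 and 8 to 59 in Hypoxia+Nitrate; Igkv4-59 shares 74.3% of its 50-base stretches with another Igkv segment, so its counts are uncertain too. Igkv6-15 reached 5 to 14 counts in Hypoxia, and 45, 9, 12 and 78 in Hypoxia+Nitrate, high in the same 2 libraries as its relative Igkv6-23. None of these passed the test with all 8 libraries; without Hypoxia+Nitrate 2, Igkv6-15 did (log2 2.11, edgeR adjusted p = 0.0442).

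At the other end, the segments with the lowest p among those with lower values in Hypoxia+Nitrate were Igkv1-88, Igkv12-67, Igkv4-71, Igkv12-42 and Igkv14-134-1. Of these 5, 3 are pseudogenes: Igkv12-67, Igkv12-42 and Igkv14-134-1. Igkv1-88 had counts of 14, 7, 18 and 8 in Hypoxia and 0, 0, 8 and 0 in Hypoxia+Nitrate, at 1.29 to 2.40 times the receptor level in Hypoxia. Igkv12-67 had 10, 17, 14 and 20 against 0, 10, 6 and 0. In CPM the groups did not overlap for either, but neither passed the test (edgeR adjusted p = 0.164 and 0.22). Single Hypoxia+Nitrate libraries decided this: without Hypoxia+Nitrate 3, Igkv1-88 (log2 -6.53, adjusted p = 0.00852) and Igkv4-71 (-6.94, 0.0083) passed as lower in edgeR. Without Hypoxia+Nitrate 2, Igkv12-67 (-3.00, 0.0483), Igkv12-42 (-5.96, 0.00718) and Igkv14-134-1 (-5.71, 0.0258) did. For all of these but Igkv12-67, the library left out was the only Hypoxia+Nitrate library with a count. Its removal left only zeros in that group, and the calls and fold changes rest on that. Of all genes, 22% passed as lower without Hypoxia+Nitrate 3 and 39.5% without Hypoxia+Nitrate 2. Igkv4-71 shares 42.6% of its 50-base stretches with another Igkv segment. In the remaining 144 segments the median count per library was 5 to 8 in Hypoxia and 0 in all 4 Hypoxia+Nitrate libraries, and the highest was 31 to 38 and 42 to 74.

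Over the locus, 32 of 160 segments passed edgeR's filter on low counts and were tested, and 128 did not pass. The filter scales counts to library size, so it depends on which libraries hold the counts. A count of calls therefore describes the segments that passed, which were not always those with the most counts. Igkv8-30, Igkv6-23 and Igkv8-34 passed as higher in Hypoxia+Nitrate, 3 of 32 or 9.38%, beside 11.7% of all 35431 genes tested. No segment passed as lower, beside 12.7% of all genes, and 0 of the 32 were lower at an unadjusted p under 0.05 in edgeR. The 48 segments with no count in any Hypoxia+Nitrate library did not pass the filter. The 0 lower calls and the median of the 32 segments therefore leave out the segments absent from Hypoxia+Nitrate. DESeq2 called 3 segments higher and 0 lower, beside 13.1% and 28.3% of all genes. The share called higher was thus near that over all genes. In CPM 3 segments had groups that did not overlap in the higher direction, beside 12% of all genes, and 2 in the lower direction, beside 28.8%. The median log2 difference was 0.72 over the 32 segments and -0.58 over all genes. With scaling by library size only these were -0.01 and -1.07, and edgeR called 0 segments in either direction (0 at an unadjusted p under 0.05), beside 0.686% of all genes higher and 4.39% lower. Over these 32 segments the median lay above that of all genes under both scalings, while its own sign turned. Without the filter on low counts 159 segments were tested, those with counts only in Hypoxia included. Of the 159, 3 were higher beside 9.33% of all genes and 35 lower beside 21.5%. The order of the medians turned, at -1.67 for the segments and -1.41 for all genes. Without Hypoxia+Nitrate 2, 75 were tested, with 6 higher and 27 lower beside 14.3% and 39.5% of all genes. Without Hypoxia+Nitrate 3, 64 were tested, with 2 higher and 16 lower beside 13.1% and 22%.

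The lists of the 10 most used segments were more alike among the Hypoxia+Nitrate libraries, where pairs shared 3 to 6 segments, than among the Hypoxia libraries, where pairs shared 2 to 4; pairs across the groups shared 1 to 5. This is a description, with no test. Igkv8-34 was in the list of all 4 Hypoxia+Nitrate libraries and of no Hypoxia library, and Igkv6-23 in 3 and none. Igkv8-30 was in the list of 4 Hypoxia+Nitrate and 3 Hypoxia libraries. Igkv4-78 was in the list of all 4 Hypoxia libraries and 1 Hypoxia+Nitrate library. The most used segment of a library held 3.09%, 7.28%, 7.22% and 7.17% of its Igkv counts in Hypoxia and 10.1%, 20.5%, 17.7% and 16.5% in Hypoxia+Nitrate (exact permutation p = 0.0286, adjusted 0.04). This difference no longer passed when the receptor level was subtracted (exact permutation p = 0.143) or when pseudogenes were left out (p = 0.0571).

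By family, Igkv8 showed the largest difference in mean share among the 20 families. This family of 12 segments makes up 8.03% of the exonic length of the locus and took 12.3%, 13.5%, 13.2% and 8.66% of the Igkv counts in Hypoxia and 22.7%, 24.8%, 39.4% and 27.5% in Hypoxia+Nitrate, with no overlap. The Igkv6 family (9 segments, 5.92% of the length) took 4.62% to 6.85% in Hypoxia and 15.4%, 3.78%, 5.53% and 23.7% in Hypoxia+Nitrate, where replicates 1 and 4 were high and 2 and 3 were not. The largest family, Igkv4 (33 segments, 21.5% of the length), took 22.1% ± 1.6 in Hypoxia and 15% ± 4.36 in Hypoxia+Nitrate (SD, n = 4 each). Igkv3, the family nearest Igkc (13 segments, 8.44% of the length), took 7.41% ± 1.62 and 2.83% ± 1.82 (SD, n = 4 each), the Hypoxia libraries all above the Hypoxia+Nitrate libraries. In Hypoxia the shares of Igkv4, Igkv3 and Igkv6 lay within 3 percentage points of the families' shares of exonic length. These shares are descriptions with no test, and they add to 100% within a library, so that a high share of one family lowers the others.

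**Figure D4:**
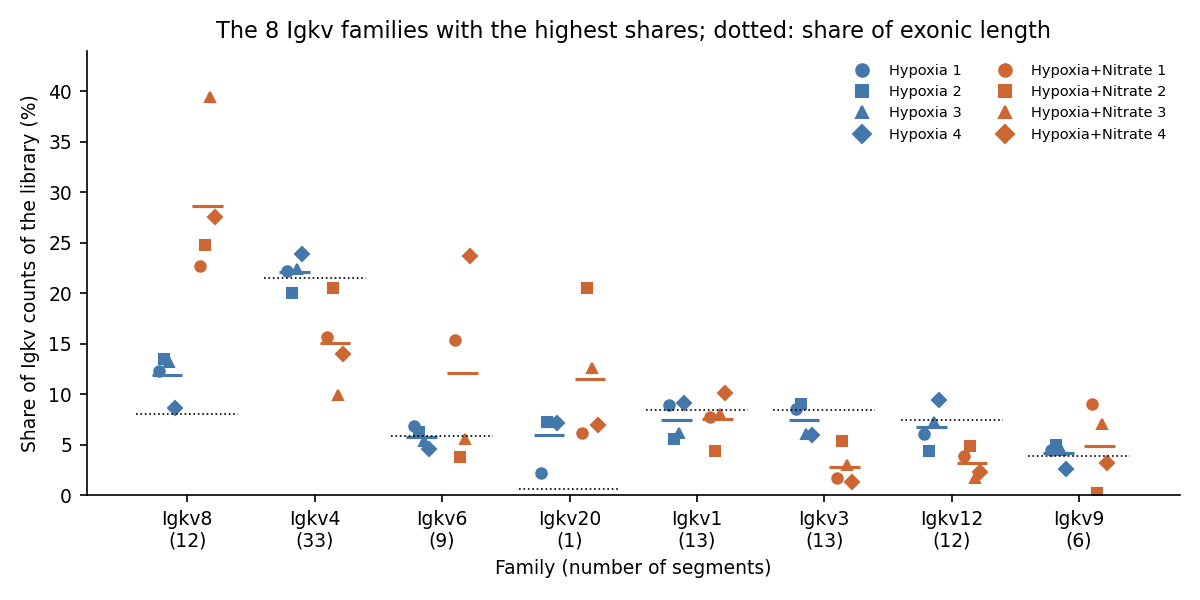
Share of the library's Igkv counts (%) in the 8 families with the highest shares, with 1 symbol per library, a bar at each group's mean (n = 4) and a dotted line at the family's share of the exonic length of all 160 segments. Igkv8 lies at 8.66% to 13.5% in Hypoxia and 22.7% to 39.4% in Hypoxia+Nitrate.

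Position in the locus differed in the same way. The 53 segments in the last part of the locus, the one nearest Igkc when its span is cut into 3 equal parts, make up 34.6% of the exonic length. They held 34.6% ± 2.25 of the Igkv counts in Hypoxia and 51.8% ± 5.16 in Hypoxia+Nitrate (SD, n = 4 each). The 60 segments of the middle part held 34% ± 2.19 and 20.9% ± 2.94, and the 47 of the far part 31.3% ± 1.82 and 27.3% ± 2.97 (SD, n = 4 each). Igkv8-30, Igkv8-34, Igkv6-23 and Igkv8-21 all lie 412 to 682 kb from Igkc. Minus-strand segments, 54.4% of the exonic length, held 56.1% ± 2.62 in Hypoxia and 71.3% ± 2.91 in Hypoxia+Nitrate (SD, n = 4 each). V genes, 65.4% of the exonic length, held 73.4% ± 4.80 and 92.5% ± 5.36 (SD, n = 4 each). These splits overlap, since the 4 leading segments named here are V genes on the minus strand in the last part.

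**Figure D5:**
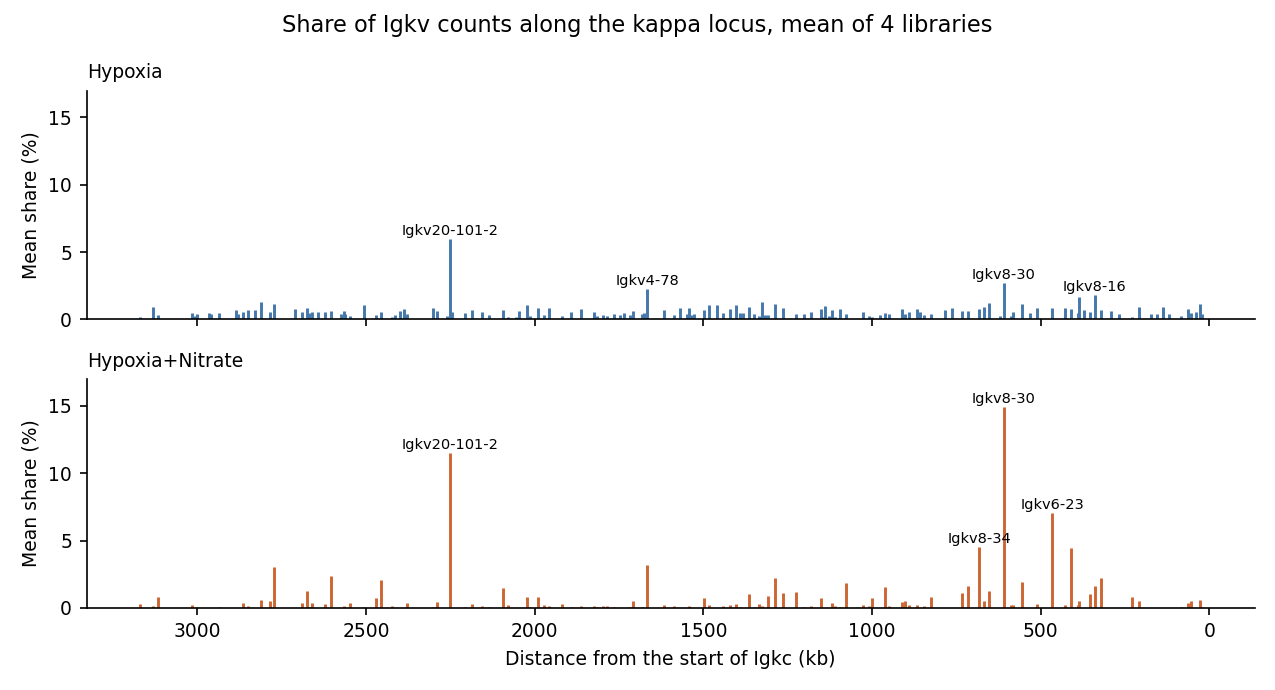
Mean share of Igkv counts (%, mean of 4 libraries) of each of the 160 segments against its distance from the start of Igkc (kb), for Hypoxia (top) and Hypoxia+Nitrate (bottom). Hypoxia shows low bars along the whole locus with Igkv20-101-2 highest at 5.97%, and Hypoxia+Nitrate shows few high bars, led by Igkv8-30 at 14.9%.

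The constant gene gives a view of kappa transcripts that does not rest on the V segments. Igkc, which every kappa chain carries, had counts of 288, 194, 104 and 130 in Hypoxia and 2571, 871, 1033 and 7422 in Hypoxia+Nitrate. It rose by a log2 fold change of 3.80 (SE 0.797; edgeR adjusted p = 0.00997), with no overlap between groups. The call held with each library left out in turn and was lost by library size only (log2 2.72, adjusted p = 0.104), without Hypoxia 1 and 2 together (4.81, 0.051) and with the receptor level subtracted (limma-voom, 2.19, 0.0625). Per kb it stood at 9.44 to 30.4 times the receptor level in Hypoxia and at 129 to 2940 times in Hypoxia+Nitrate. Every Hypoxia library had more counts on the V segments than on Igkc, at 4.72, 6.09, 17.7 and 10.8 Igkv counts per Igkc count. In Hypoxia+Nitrate the ratio was 0.514, 1.4, 1.8 and 0.261. After subtraction of the receptor level from both it was 1.26 to 7.42 in Hypoxia and 0.225 to 1.17 in Hypoxia+Nitrate. The 5 joining segments, Igkj1 to Igkj5, had too few counts to pass the filter on low counts. Each had 0 to 8 counts per library in Hypoxia and 0 or 1 in Hypoxia+Nitrate. With no filter, 1 gene of the list of these segments and Igkc was called lower, beside 21.5% of all genes.

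Other genes of antibody production were read from lists chosen with earlier results of these data known. Beside each count stand the shares of all genes given above, 11.7% higher and 12.7% lower, and the median log2 difference of -0.58. Of 8 heavy chain constant genes (median 0.05) 1 rose, Igha, the IgA heavy chain, with a log2 fold change of 3.90 (edgeR adjusted p = 0.012), and none fell. None of the 5 tested lambda light chain genes (median 0.79) passed in either direction. Of 12 plasma cell genes (median 0.10) 2 rose and none fell: Jchain, which joins IgA into dimers (log2 2.94, adjusted p = 0.011), and Xbp1, a transcription factor of secretory cells that the gut epithelium also expresses (log2 2.17, adjusted p = 0.0398). Pigr, the epithelial receptor that carries IgA into the gut lumen, rose by 3.28 (adjusted p = 0.0164). Irf4, a plasma cell transcription factor, had 6.62 ± 2.15 CPM in Hypoxia and 1.35 ± 1.32 in Hypoxia+Nitrate (SD, n = 4 each) and did not pass (edgeR adjusted p = 0.111).

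Genes of light chain rearrangement, which act in the bone marrow and not in plasma cells, went the other way. Of the 6 tested (median log2 difference -2.11), 3 fell and none rose: Rag1 and Rag2, the recombinase that joins V to J, with log2 fold changes of -4.01 and -5.80 (edgeR adjusted p = 0.0289 and 0.00939), and Igll1, a surrogate light chain gene, at -2.26 (0.0454). Their summed counts lay at 1.21 to 1.54 times the receptor level in Hypoxia and 0.276 to 0.996 times in Hypoxia+Nitrate. Of 12 B cell genes (median -1.09) 2 fell, Pax5 (log2 -3.43, edgeR adjusted p = 0.0194) and Fcmr (-3.50, 0.033), and none rose. The B cell list lay at 1.06 to 1.43 times the receptor level in Hypoxia and at 0.339 to 13.7 times in Hypoxia+Nitrate, where Hypoxia+Nitrate 4 was highest. Of 6 germinal centre genes Bcl6 rose (log2 1.62, edgeR adjusted p = 0.0268) and S1pr2 fell (-2.69, 0.0173), and of 7 T cell genes Cd3e alone rose (1.44, 0.042). The plasma cell list lay at 1.51 to 2.12 times the receptor level in Hypoxia and at 2.65 to 30.6 times in Hypoxia+Nitrate. Most of the calls in this and the preceding paragraph were lost under another scaling or without single libraries. Without Hypoxia 1, 2, 3 or 4 calls fell over all genes too. The share called higher went from 11.7% to 1.95%, 7.06%, 4.16% and 4.23%. The share called lower went from 12.7% to 3.61%, 8.46%, 6.99% and 7.27%. Under RLE scaling those of Xbp1 (edgeR adjusted p = 0.0581) and Cd3e (0.0758) were lost, and by library size only those of Igha (0.0492), Rag2 (0.0447) and Pax5 (0.0142) alone remained. Those of Xbp1, Rag1, Igll1, Fcmr and Cd3e were lost without any 1 of the Hypoxia libraries (0.0572 to 0.146). Without Hypoxia 1 those of Igha, Pigr, Pax5, Bcl6 and S1pr2 were lost too (0.0518 to 0.0952), which left Jchain and Rag2 (0.0482 each). Those of Pigr and Bcl6 were also lost without Hypoxia 3 or 4 (edgeR adjusted p 0.0557 to 0.0911). That of S1pr2 was lost without Hypoxia 3 (0.053) and that of Pax5 without Hypoxia 4 (0.0624). Without Hypoxia 1 and 2 together only Igha and Jchain remained called (0.0473 each). With the receptor level subtracted, Jchain, Pigr, Xbp1, Bcl6 and Cd3e no longer passed (limma-voom, adjusted p 0.0903 to 0.472). Whether these levels and those of the Igkv segments share a source was not tested.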

How the data were processed

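Total RNA of 4 Hypoxia and 4 Hypoxia+Nitrate samples was sequenced from libraries made with a stranded kit, per the labels' protocols. The submitters' processing notes name HISAT, featureCounts 1.5.0-p3, DESeq 1.8.3 and build GRCm38. Not given in the sources used here are the annotation release, the strand setting and what was done with reads that match several genes. The authors deposited raw whole-number counts per gene, in 1 joint table and 8 per-sample tables that hold the same counts. Of 55421 gene identifiers, 55154 matched GENCODE M21, which gave biotypes, exons and positions.

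Counts of all genes were tested with edgeR 4.0.16 (filterByExpr at its defaults, a minimum count of 10 and a minimum total of 15; TMM scaling; quasi-likelihood test; Benjamini-Hochberg over all genes; adjusted p threshold 0.05), in R 4.3.3. On simulated counts of 31565 genes for this comparison it recovered 0 of 86 genes changed 4-fold and 46 of 92 changed 16-fold, with 2 false calls. The 7 library measures were tested by exact 2-sided permutation over samples (scipy 1.17.1), at a raw p of 0.05. The receptor level is the count per kb of exon of 1470 receptor genes with at least 100 bases of exon free of other genes. Alternatives used DESeq2 1.42.0, limma 3.58.1 (voom), other scalings and filters, subtraction of the receptor level and libraries left out. When a level was subtracted from single segments or genes, values below it were set to 0.

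Segments are named if they were the most used of a library, among the 10 highest mean shares, or among the 5 lowest p in either direction. Segments and gene lists were chosen with earlier results of these data known.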

Additional observations from a re-analysis of the deposited data

Results flagged for a closer look

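In 46 groups of 4 values (the library measures and the shares of the named segments), 8 held a library far from the other 3 by Dixon's test at the 95% level. The groups are not independent of each other, so this number is not set against a rate expected by chance. The share of the most used segment was low in Hypoxia 1, at 3.093%, where the other Hypoxia libraries lay at 7.17% to 7.28%. Igkv20-101-2, the most used segment of those 3 libraries, was low in the same library at 2.21% of the Igkv counts. In Hypoxia+Nitrate, Igkv4-78 was high in replicate 2 at 8.72%, and Igkv8-34 was high in replicate 3 at 8.76%. Igkv1-88 (0.43%) and Igkv4-71 (0.967%) had counts in Hypoxia+Nitrate 3 only among the Hypoxia+Nitrate libraries. The pseudogenes Igkv12-42 (0.822%) and Igkv14-134-1 (0.74%) had counts in Hypoxia+Nitrate 2 only among them. Where all other libraries of a group have no count, any count is flagged whatever its size.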

How the results depend on the processing

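All values are Hypoxia+Nitrate minus Hypoxia. Leaving out 1 library at a time, the differences ranged from -79.0 to -71.1 expected segments at equal depth, -74.1 to -68.2 effective segments, -0.266 to -0.246 in evenness, 8.55 to 12 percentage points for the most used segment, 34.8 to 38.6 for the 10 most used, -29.8 to -17.8 segments with at least 10 counts and -0.00982 to 0.000428 percentage points for the Igkv share of all counts, which reversed within this range; 3 libraries against 4 cannot give an exact permutation p under 0.0571. Without Hypoxia+Nitrate 1 and 4 the first 5 were -76.5, -73.6, -0.277, 12.9 and 40.2 and the Igkv share reversed to 0.000887; without Hypoxia 1 and 2 the first 5 were -84.1, -75.7, -0.265, 8.98 and 35.9. With the receptor level subtracted, the Igkv share (0.000578) and the number of segments with at least 10 counts (5.5) reversed and the most used segment gave 6.92; with the pseudogene level subtracted these were 0.0014, 8.0 and 4.36. The differences in expected segments, effective number, evenness and the 10 most used were -42.2, -30.9, -0.174 and 26.2 after the first subtraction and -25.4, -21.2, -0.124 and 19.9 after the second. Both subtractions set values below the level to 0 and are partial. With pseudogenes left out the most used segment gave 9.15, expected segments -40.2 and the effective number -40. Evenness over the segments with a count gave -0.118. A count minimum of 1 gave -76.0 segments and a minimum of 100 gave 2.75. In edgeR, 3 of 32 segments were called higher and 0 lower, beside 11.7% and 12.7% of all genes. With 1 library left out, 1 to 6 were higher and 0 to 27 lower, beside 1.95% to 14.3% and 3.61% to 39.5%. By library size only 0 were higher (all genes 0.686%), and with no filter 35 of 159 were lower (21.5%). Without mitochondrial and ribosomal DNA genes 3 of 34 were lower (16.3%), and without Hypoxia+Nitrate 1 and 4, 13 of 68 (17.6%). Without Hypoxia 1 and 2, 0 of 60 were higher (1.51%) and 8 lower (8.74%). After subtraction with limma-voom 0 of 14 were higher (4.7%). The labels state no pairing by replicate number. Correlations of deviations from the group means between samples of the same number were 0.05, -0.18, 0.18 and -0.05, which does not settle whether samples were paired. With the replicate number as a block 1 segment was higher, Igkv8-30, beside 6.14% of all genes. The median of all genes was -0.58 under TMM, -0.87 under RLE and -1.07 by library size. Differences that reversed were Igkv20-101-2 (-0.64 after subtraction), Igkv4-78 (-0.02 with RLE and with DESeq2, -0.08 with the block, -0.59 to 0.57 with 1 library left out, negative without Hypoxia+Nitrate 2, -1.47 after subtraction) and Igkv8-16 (-0.61 to 0.14 with 1 library left out, positive at 0.03 without Hypoxia 3 and 0.14 without Hypoxia+Nitrate 1, 0.44 without Hypoxia+Nitrate 1 and 4). Apart from removed libraries and subtraction, the cause was not tested. The settings that drop both mitochondrial-rich or both ribosomal-rich libraries, both subtractions by pseudogenes and by voom, and the omission of Igkv20-101-2 (whose result kept its direction in all 7 measures) were chosen after seeing the data. With 1181 to 1935 Igkv counts per library, most segments lay under 10 counts.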
